A study of Homo sapiens with 6 samples.

Results

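The Notch pathway was followed through 10 of its genes in A549, a human cell line established from a lung adenocarcinoma, in 3 libraries from cells with the control vector and 3 libraries from cells in which METTL3 was knocked down by short hairpin RNA (shMETTL3). METTL3 is the catalytic subunit of the complex that writes N6-methyladenosine (m6A) on mRNA. The genes were taken by symbol from the 57781 rows of the count table, and all 10 were found: the receptors NOTCH1, NOTCH2 and NOTCH3, the ligands JAG1 and JAG2, RBPJ and MAML1 of the nuclear complex, and the target genes HES1, HEY1 and NRARP. Both groups were grown in the same serum-containing medium and are labelled as wild type and METTL3 knockdown. Whether more than 1 hairpin was used, and whether the cells were clones or pools, is not given in the sources used here. The columns of the knockdown libraries are numbered after the letters sh, which could stand for replicates, as the labels have it, or for different hairpins, and the SD of these libraries would then also hold differences between hairpins. The study states in general that its experiments were repeated independently, but the labels do not say that these libraries came from separate cultures, so that p-values measure the spread between these libraries, which may be technical.

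A Notch receptor is cut by furin on its way to the cell surface, binds a Jagged or Delta ligand on a neighbouring cell, and is then cut by an ADAM protease and by gamma-secretase. The released Notch intracellular domain (NICD) enters the nucleus, binds RBPJ on DNA together with a Mastermind protein such as MAML1, and switches RBPJ target genes on. The best known of these are the HES and HEY genes, which encode transcriptional repressors. In lung epithelium the pathway is known for directing the choice between secretory and ciliated cells. The study links m6A to NICD1, the intracellular domain of NOTCH1, at the level of protein. It also reports, from luciferase reporters, that silencing METTL3 impaired Notch activation by the m6A reader IGF2BP3. In its cells, depletion of IGF2BP3 lowered the expression of Notch downstream genes. The libraries hold transcript levels only, and the comparison below asks which transcripts of the pathway differed between shMETTL3 and vector cells.

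The promoter of HES1 is the textbook site of RBPJ binding and is shown with those of NRARP and NOTCH3, which fell most among the 3 target genes and the 3 receptors of the 10 genes. Each line gives the 250 bases before the transcription start, 5′ to 3′ on the strand of the gene, from RefSeq on GRCh38.p14, with capitals for TGGGAA, the core of the RBPJ site, searched on both strands. HES1 lies at chr3:194135898-194136147 on the plus strand, NRARP at chr9:137302272-137302521 on the minus strand, and NOTCH3 at chr19:15200996-15201245 on the minus strand.
HES1: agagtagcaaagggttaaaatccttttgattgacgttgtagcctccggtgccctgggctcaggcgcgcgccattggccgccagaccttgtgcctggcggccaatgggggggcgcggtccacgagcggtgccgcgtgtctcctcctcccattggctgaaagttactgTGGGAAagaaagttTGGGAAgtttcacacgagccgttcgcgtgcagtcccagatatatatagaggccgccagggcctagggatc
NRARP: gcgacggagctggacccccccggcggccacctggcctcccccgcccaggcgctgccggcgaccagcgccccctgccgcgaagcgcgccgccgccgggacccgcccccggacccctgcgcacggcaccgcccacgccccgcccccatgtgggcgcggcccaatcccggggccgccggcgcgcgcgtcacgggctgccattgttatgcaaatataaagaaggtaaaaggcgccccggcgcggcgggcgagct
NOTCH3: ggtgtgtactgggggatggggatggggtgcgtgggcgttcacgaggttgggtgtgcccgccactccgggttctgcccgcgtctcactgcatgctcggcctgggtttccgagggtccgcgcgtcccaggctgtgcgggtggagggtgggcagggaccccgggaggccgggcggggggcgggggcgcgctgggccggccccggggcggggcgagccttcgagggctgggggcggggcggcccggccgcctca
In HES1 the core occurred at 2 places on the strand of the gene, beginning 84 and 70 bases before the start, and the first of them extends to GTGGGAA. An entry was found for 9 of the 10 genes, not for HEY1, and in the window from 250 bases before to 50 bases after the start TGGGAA was present in 1 of the 9. Of all 35116 promoters in the table, 24.0% held TGGGAA at least once, 3.80% held it at 2 or more places, and 6.25% held GTGGGAA. These matches are letters in a window and not measured binding sites.

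The libraries held 14931426 to 19108928 counts, and replicates of a group differed by more than sampling noise. METTL3 had 887, 846 and 808 counts in vector replicates 1, 2 and 3 and 364, 399 and 307 in shMETTL3 replicates 1, 2 and 3. After scaling by edgeR's TMM factors to CPM (counts divided by the scaled library size in units of 1e6), this was 49.9 ± 0.676 CPM (SD, n = 3) against 19.4 ± 0.525 CPM (SD, n = 3), or 38.8% of the vector level. METTL3 shares exonic bases with TOX4, which is read from the other strand and was not called changed, and the sources used here do not say whether strand was used in counting. All 8 markers of A549 or airway epithelial cells were detected, although their summed level was lower in the knockdown, at 17406 to 18034 CPM against 28361 to 29843 CPM. About 14520 CPM of the vector sum was ALDH1A1, and the markers ranged from EPCAM, which fell from 109 to 16.4 CPM, to AKR1C1, which rose by 0.21 on the log2 scale (edgeR adjusted p = 0.000532). Of the endothelial markers, VWF and EMCN were at 0 in every library and CDH5 reached 30 counts in an shMETTL3 library against at most 2 in a vector library, so that the sum over the 5 markers analysed was at most 0.184 CPM in vector and 1.45 to 2.02 CPM in shMETTL3 libraries. Haematopoietic markers summed to 0.778 to 1.41 CPM in vector and 7.08 to 7.999 CPM in shMETTL3 libraries, mostly CD14 and ITGAM, while PTPRC had at most 1 count and CD3E none. Fibroblast and mural markers summed to 7.69 to 11.03 CPM and 15.9 to 17.8 CPM, with COL1A1 the highest, DCN at no more than 7 counts and COL1A2 at no more than 3. The part of these shifts in the results below was not tested. In bulk RNA, fewer cells that express a gene and less RNA per cell cannot be told apart.

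Within the Notch pathway, the knockdown libraries showed a loss of NOTCH3, NRARP and, to a smaller degree, JAG1, JAG2, MAML1 and HES1, and a gain of HEY1, NOTCH1 and NOTCH2. NOTCH3 fell to 31.0% of its vector level, NRARP to 43.1% and HES1 to 74.5%, whereas HEY1 stood at 249.4% and NOTCH1 at 138%. All 10 genes passed the filter on low counts. With edgeR's quasi-likelihood test and Benjamini-Hochberg adjustment over all 15125 genes tested, 9 of the 10 had an adjusted p under 0.05, against 66.6% of all tested genes. Of these, 3 were higher and 6 were lower, where 33.7% of all tested genes were higher and 32.9% lower. The libraries of the groups did not overlap for the same 9 genes, and did not overlap for 69.4% of all tested genes. The log2 fold changes of the 10 genes had a median of -0.28, where all tested genes had 0.0022. The median absolute log2 fold change was 0.42 for the 10 genes and 0.41 for all. The plot of CPM by library shows each gene on its own scale, and the plot of log2 fold changes sets the genes side by side.

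**Figure D1:**
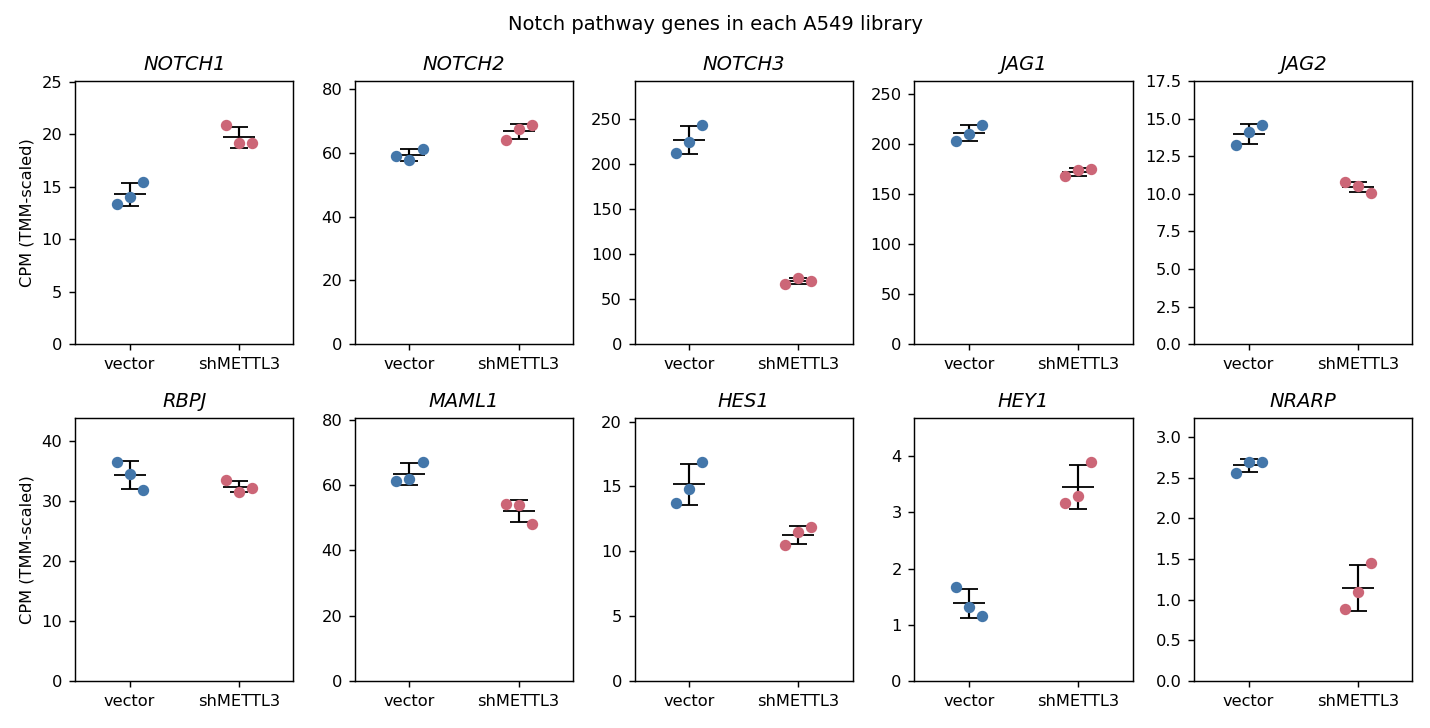
Level of each Notch pathway gene in CPM after TMM scaling (y axis, from 0) in the 3 vector and 3 shMETTL3 libraries. Points are libraries, the wide dash is the mean and the bars are 1 SD, and only RBPJ has overlapping groups.

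**Figure D2:**
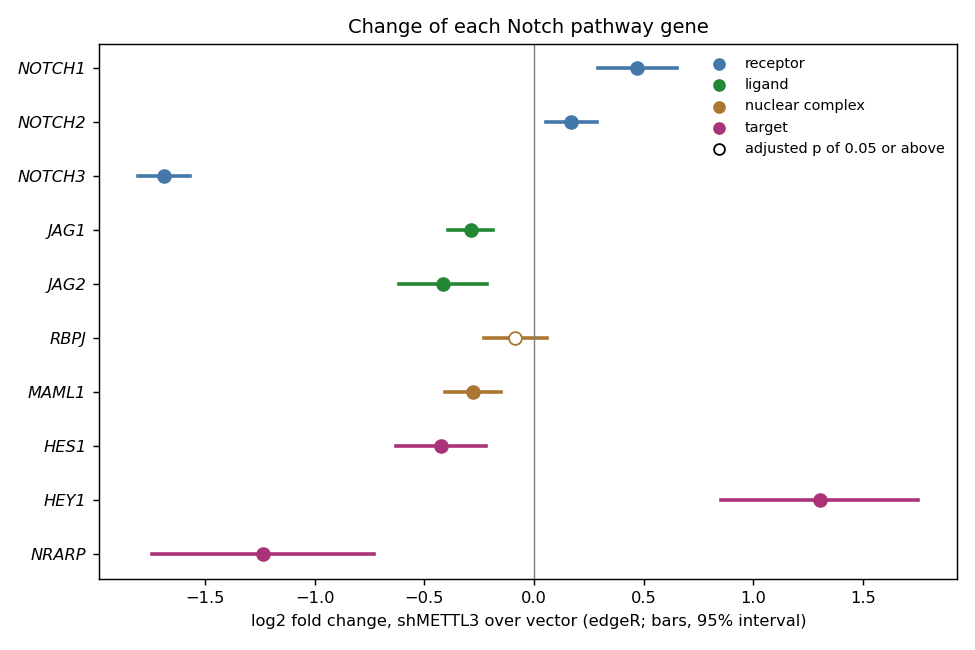
Log2 fold change of shMETTL3 over vector for each gene (x axis) with its 95% interval from edgeR, coloured by role, with an open point for RBPJ, the gene with an adjusted p above 0.05. NOTCH3 at -1.69 and HEY1 at 1.30 lie at the ends of the range.

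The 3 receptors moved apart. NOTCH3, best known from vascular smooth muscle and also present in airway basal cells, was the most abundant receptor in vector cells also per length, with 213, 225 and 244 CPM in vector replicates 1, 2 and 3. In shMETTL3 replicates 1, 2 and 3 it stood at 67.2, 73.7 and 70.8 CPM, so that every knockdown library lay far below every vector library. The log2 fold change was -1.69 (SE 0.058, 95% interval -1.81 to -1.57, edgeR adjusted p = 1.55e-19), a 3.22-fold fall. Among all genes changed in the fit, 372 fell by more. NOTCH1, whose intracellular domain the study followed as a protein, was the least abundant of the 3 also per length, with 13.3, 14.01 and 15.4 CPM in vector cells, against 20.9, 19.1 and 19.1 CPM in shMETTL3 cells. All knockdown libraries were above all vector libraries, and the log2 fold change was 0.47 (SE 0.088, 95% interval 0.29 to 0.65, edgeR adjusted p = 3.40e-05). NOTCH2 had 58.9, 57.7 and 61.4 CPM in vector cells, against 64.01, 67.4 and 68.8 CPM after the knockdown. The groups were separate but close, and the log2 fold change was 0.17 (SE 0.057, edgeR adjusted p = 0.0105). The call of NOTCH2 was lost without vector replicate 2, at 0.14 with an edgeR adjusted p of 0.0580, and without shMETTL3 replicate 3, at 0.15 with an edgeR adjusted p of 0.0580. NOTCH2 shares near-identical sequence with the NOTCH2NL genes. The row of NOTCH2NLA held 12 to 44 counts per library against 964 to 1352 for NOTCH2, and its log2 fold change was 0.61 (SE 0.34, edgeR adjusted p = 0.116). NOTCH4, an endothelial receptor, had 0 counts in all libraries, which allows up to 3 counts, or 0.150 to 0.189 CPM, in each.

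Ratios within a library do not depend on the scaling between libraries. The log2 ratio of NOTCH1 to NOTCH3 counts was -3.997, -4.003 and -3.978 in vector cells and -1.69, -1.95 and -1.88 after the knockdown. It was higher by 2.15, or 4.45-fold, in the knockdown, with no overlap between groups (exact permutation test, two-sided, p = 0.1, which is as low as 3 libraries against 3 can reach). The ratio of NOTCH2 to NOTCH3 was 3.62-fold higher, with a mean log2 ratio of -1.94 ± 0.072 (SD, n = 3) in vector and -0.080 ± 0.044 (SD, n = 3) in shMETTL3 cells. The ratio of NOTCH1 to NOTCH2 was 1.23-fold higher. In all 7 ratios compared between the receptors, the ligands and the target genes, the groups did not overlap and the exact permutation test gave p = 0.1, with 0.1 also after Benjamini-Hochberg adjustment over the 7, so that no ratio can pass 0.05 in this design.

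Levels of different genes were compared as CPM per kb of the canonical GENCODE transcript. On this scale NOTCH3 made up 78.9%, 79.9% and 80.1% of the receptor transcripts in vector replicates 1, 2 and 3 and 49.9%, 51.8% and 50.4% in shMETTL3 replicates 1, 2 and 3. NOTCH2 went from 15.8% ± 0.676 (SD, n = 3) to 36.4% ± 0.668 (SD, n = 3), and NOTCH1 from 4.53% ± 0.0658 (SD, n = 3) to 12.9% ± 1.03 (SD, n = 3). The sum of the receptors was 32.9 ± 2.02 CPM per kb (SD, n = 3) in vector and 16.0 ± 0.451 CPM per kb (SD, n = 3) in shMETTL3 libraries. The groups did not overlap in any of these quantities. The transcript isoforms used in A549 cells were not measured.

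**Figure D3:**
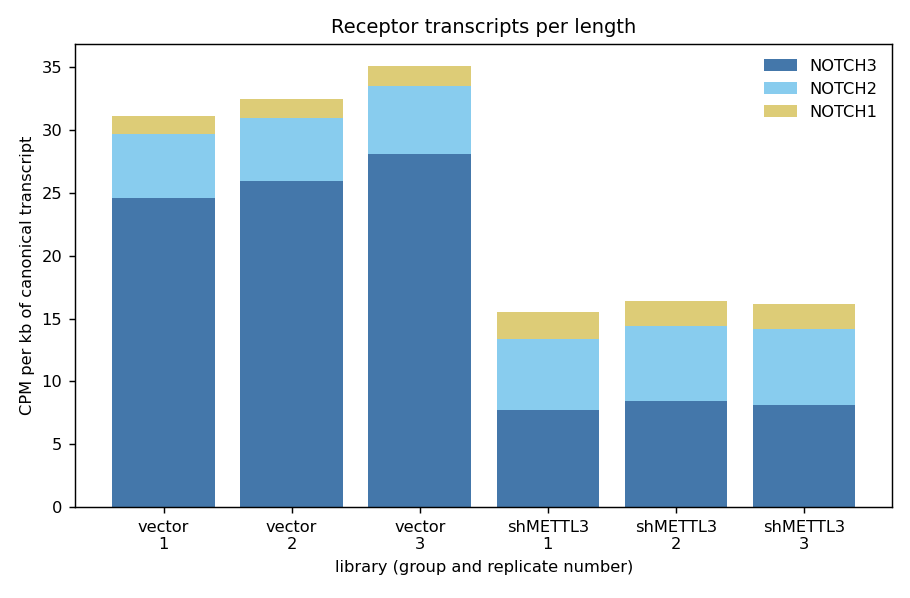
Receptor transcripts in each library as CPM per kb of canonical transcript (y axis, from 0), stacked by gene. The bars of the 3 shMETTL3 libraries reach 15.5 to 16.4 against 31.1 to 35.1 in the vector libraries, with a smaller NOTCH3 segment and larger NOTCH1 and NOTCH2 segments.

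JAG1 and JAG2 encode the Jagged ligands and both were lower. JAG1, the most abundant of the 10 genes per length in both groups, had 203, 210 and 219 CPM in vector cells, against 168, 174 and 175 CPM in shMETTL3 cells. The groups were separate, with a log2 fold change of -0.29 (SE 0.050, 95% interval -0.39 to -0.19, edgeR adjusted p = 1.34e-05). JAG2 stood at 13.3, 14.1 and 14.6 CPM in vector cells and 10.8, 10.5 and 10.1 CPM in the knockdown libraries. It fell by 0.42 on the log2 scale (SE 0.097, edgeR adjusted p = 0.000492) without overlap. JAG2 made up 6.40% ± 0.0795 (SD, n = 3) of the Jagged transcripts per length in vector and 5.88% ± 0.309 (SD, n = 3) in shMETTL3 libraries, and the ratio of JAG1 to JAG2 was 1.09-fold higher. Exons of unnamed long noncoding RNAs overlap JAG1 by 306 bases and NRARP by 73 bases on the opposite strand. Another overlaps JAG2 by 469 bases on the same strand. No row was matched to these RNAs by symbol, though rows under another name may exist, and their reads could not be told apart. Of the Delta ligands, DLL3, which acts mainly inside the cell as an inhibitor, had a log2 fold change of 0.66 (SE 0.21, edgeR adjusted p = 0.00656) at 1.80 CPM in vector and 2.86 CPM in shMETTL3 libraries. DLL4 had 8, 22 and 9 counts in vector and 14, 11 and 5 counts in knockdown libraries, and its groups overlapped (log2 fold change -0.50, SE 0.44, edgeR adjusted p = 0.326). DLL1, at 1 to 9 counts, was too low to be tested.

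Of the nuclear partners, MAML1 was lower and RBPJ was not called changed. RBPJ, the DNA-binding protein of the complex, had 36.5, 34.5 and 31.8 CPM in vector cells, against 33.4, 31.5 and 32.1 CPM in shMETTL3 cells. The groups overlapped, and the log2 fold change of -0.085 had a 95% interval from -0.23 to 0.058 (edgeR adjusted p = 0.287). With offsets for GC content and transcript length in edgeR it was called lower, at -0.31 (edgeR adjusted p = 2.73e-05). Its canonical transcript has 37.2% GC, against a median of 48.2% for the tested protein-coding genes. Processed pseudogenes of RBPJ could share its reads, but the 4 rows listed had at most 1 count in a library. MAML1, the coactivator that bridges NICD and RBPJ to the transcription machinery, stood at 61.2, 61.8 and 67.2 CPM in vector and 54.4, 53.9 and 48.1 CPM in shMETTL3 libraries. All knockdown libraries were lower, with a log2 fold change of -0.28 (SE 0.062, 95% interval -0.41 to -0.15, edgeR adjusted p = 0.000271).

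The target genes did not move as 1 group. HES1, the classical Notch target, whose promoter window with 2 TGGGAA matches is printed above, had 247, 247 and 276 counts in vector and 203, 231 and 188 counts in shMETTL3 libraries. This was 13.8, 14.8 and 16.9 CPM against 10.5, 11.5 and 11.8 CPM, a log2 fold change of -0.42 (SE 0.10, 95% interval -0.63 to -0.22, edgeR adjusted p = 0.000565). NRARP, a small ankyrin-repeat protein that is induced by Notch and dampens it, had 46, 45 and 44 counts in vector and 17, 22 and 23 counts in knockdown libraries. It fell by 1.23 on the log2 scale (SE 0.25, 95% interval -1.74 to -0.73, edgeR adjusted p = 8.16e-05). HEY1, a repressor related to HES1, went the other way, with 30, 22 and 19 counts in vector and 61, 66 and 62 counts in shMETTL3 libraries. Its log2 fold change was 1.30 (SE 0.22, 95% interval 0.85 to 1.75, edgeR adjusted p = 8.54e-06). For each of the 3 targets the groups were separate. HEY1 and NRARP had the fewest counts of the 10 genes, at 1.16 to 3.91 CPM and 0.880 to 2.70 CPM, and their changes are known less precisely than that of NOTCH3. The log2 ratio of HEY1 to NRARP was -0.61, -1.02 and -1.19 in vector and 1.81, 1.56 and 1.41 in shMETTL3 libraries, a 5.79-fold higher ratio, and that of HES1 to HEY1 was 3.32-fold lower, at 3.44 ± 0.40 (SD, n = 3) in vector and 1.71 ± 0.10 (SD, n = 3) in shMETTL3 libraries.

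Among the other HES and HEY genes on the list, all 5 that were tested were lower, where 32.9% of all tested genes were. HES2 had 109, 94 and 97 counts in vector and 31, 25 and 23 counts in knockdown libraries, a log2 fold change of -2.04 (SE 0.19, edgeR adjusted p = 1.96e-10). HEY2, the close relative of HEY1 known from the heart, had 61, 58 and 59 counts in vector and 23, 24 and 21 counts in knockdown libraries, with a log2 fold change of -1.50 (SE 0.21, edgeR adjusted p = 6.90e-07). HES4 was the most abundant, at 24.4 ± 2.78 CPM per kb (SD, n = 3) in vector against 9.62 ± 1.02 CPM per kb (SD, n = 3) for HES1, and fell by 1.09 on the log2 scale (SE 0.099, edgeR adjusted p = 1.90e-10), or by 0.65 with offsets for GC content and length. HES7, a gene of the segmentation clock, stood at -0.84 (edgeR adjusted p = 0.0177) and HEYL at -0.51 (edgeR adjusted p = 0.00172), or -0.33 with scaling by library size alone. HES7, at 12 to 32 counts, lost its call without vector replicate 3, at -0.68 (edgeR adjusted p = 0.0963), without shMETTL3 replicate 1, at -0.63 (edgeR adjusted p = 0.106), with scaling by library size alone and with the offsets. HES5 had a single count in 1 of the 6 libraries. The list does not hold every HES gene. Among the HES and HEY genes followed here that were tested, only HEY1 was higher in the shMETTL3 libraries, and none of them changed sign in 16 alternatives. As the plot of these genes by library shows, the groups were separate for each of them.

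**Figure D4:**
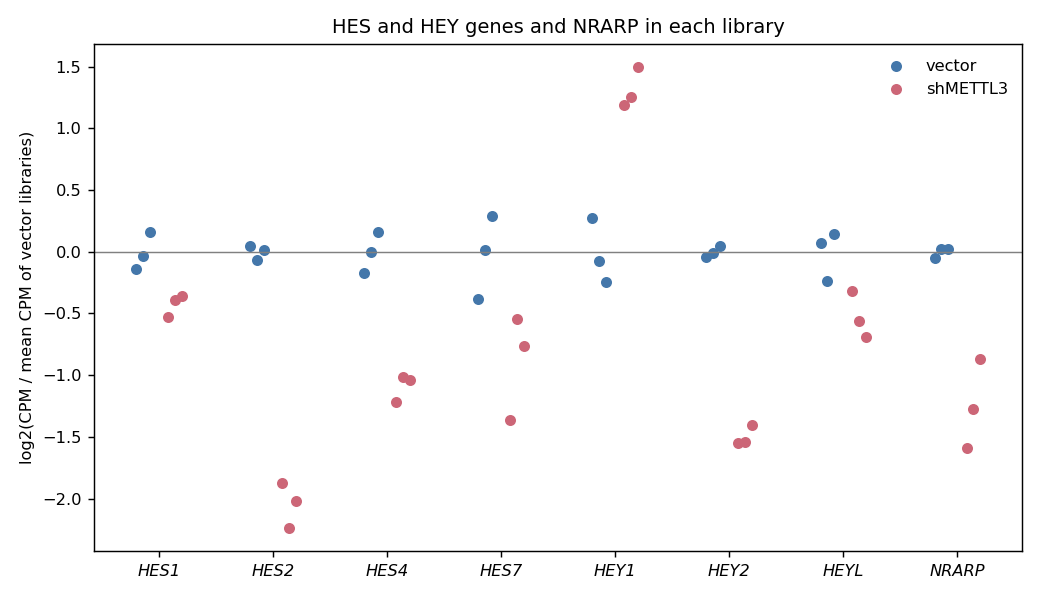
HES and HEY genes and NRARP in each library as log2 of CPM over the mean CPM of the 3 vector libraries (y axis), vector and shMETTL3 side by side. The HEY1 points of the shMETTL3 libraries lie above 0 and those of the other genes below it.

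In the order of levels per length, JAG1 was first in both groups, at 35.5 CPM per kb in vector and 29.0 CPM per kb in shMETTL3 libraries. In vector cells it was followed by NOTCH3, MAML1, HES1, RBPJ, NOTCH2, JAG2, NOTCH1, NRARP and HEY1. The libraries of MAML1 and HES1 overlapped and those of the other neighbours in this order did not. In shMETTL3 cells MAML1 came second and NOTCH3, at 8.13 CPM per kb against 26.2 CPM per kb in vector, followed it, with overlapping libraries. HES1, RBPJ and NOTCH2 followed, of which RBPJ and NOTCH2 overlapped. NOTCH1 had passed JAG2, whose libraries overlapped with those of HEY1, and NRARP was last at 0.432 CPM per kb.

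On GRCh37 the genes lie on 9 chromosomes, JAG1 at chr20:10618332-10654647, JAG2 at chr14:105607319-105635161, RBPJ at chr4:26165077-26436753, MAML1 at chr5:179159823-179204284, HES1 at chr3:193853937-193856521, NOTCH2 at chr1:120454176-120643366 and HEY1 on chromosome 8. NOTCH1 (chr9:139388885-139440500) and NRARP (chr9:140194083-140196723) lie 754 kb apart on the minus strand of chromosome 9. NOTCH1 and NRARP moved in opposite directions. Among the 20 tested genes nearest to NRARP, 12 were higher and 2 lower, with a median log2 fold change of 0.21, and each of the 20 had a higher value than NRARP. Around NOTCH1 the median was 0.25, with 13 genes higher and 3 lower. NOTCH3 (chr19:15269849-15311806) lay among genes with a median of -0.38, of which 13 were lower and 3 higher, and each had a higher value than NOTCH3. HEY1 lay among genes with a median of -0.38, of which 12 were lower and 2 higher, and none had a value as high as HEY1.

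Because METTL3 places m6A mostly in a consensus of which GGACT is a frequent form, GGACT was counted in the canonical transcripts. The 10 genes held 2 to 16 occurrences, or 0.52 to 2.28 per kb, where the median of the tested protein-coding genes was 0.92 per kb. HEY1, with 5 occurrences or 2.28 per kb, and HES1, with 3 or 1.905 per kb, stood at the 94.9th and 89.8th percentile of those genes. NOTCH3 held 9, or 1.04 per kb, NRARP 2, or 0.76 per kb, and JAG2 was lowest at 0.52 per kb. The genes with the densest occurrences, HEY1 and HES1, moved in opposite directions. The letters do not show that a site is methylated, and m6A was not measured in these libraries.

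Of 53 other pathway genes, listed by role, 49 were tested and 32 had an adjusted p under 0.05 in the same edgeR fit, or 65.3% beside the 66.6% of all tested genes, with 19 higher and 13 lower. Their median log2 fold change was 0.0050. Scaling by library size alone gave 36, with 27 higher and 9 lower, while it called 10259 of the 15125 genes and moved the median of all of them to 0.18. The enzymes that mature the receptor were the group with the most rises, with 5 of 7 higher, beside 33.7% of all tested genes, and none lower. LFNG, the fringe enzyme that lengthens O-fucose on the receptor and alters its choice of ligand, rose from 3.81 ± 0.241 CPM to 9.58 ± 0.769 CPM (SD, n = 3 each), a log2 fold change of 1.33 (SE 0.14, edgeR adjusted p = 1.88e-09). POGLUT1, which adds O-glucose, rose by 0.88 on the log2 scale (edgeR adjusted p = 9.67e-10) and EOGT, which adds O-GlcNAc, by 0.77 (edgeR adjusted p = 7.27e-06). Of the 8 ADAM proteases and gamma-secretase subunits that make the ligand-induced cuts, 2 were higher and none was lower, or 25.0% changed beside 66.6% of all tested genes. ADAM10 rose from 109 ± 10.8 CPM to 175 ± 6.99 CPM (SD, n = 3 each), a log2 fold change of 0.69 (SE 0.060, edgeR adjusted p = 9.64e-11), or 0.45 with the offsets.

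Genes of receptor and NICD turnover changed in both directions, with 4 of 11 higher and 5 lower, beside 33.7% and 32.9% of all tested genes. NUMBL, related to the Notch inhibitor NUMB, fell from 43.9 ± 4.004 CPM to 22.2 ± 0.592 CPM (SD, n = 3 each), a log2 fold change of -0.98 (SE 0.074, edgeR adjusted p = 4.18e-12). In the Deltex family of ubiquitin ligases 3 of the 4 genes listed fell, DTX2 by 0.88 and DTX4 by 0.81 on the log2 scale (edgeR adjusted p = 2.10e-11 and 5.03e-11). DTX1, itself a Notch target, fell by 1.12 on the log2 scale (edgeR adjusted p = 9.02e-06) while DTX3 rose to 219% of its vector level (edgeR adjusted p = 7.50e-09). SIRT1, the deacetylase that the study connects with the stability of NICD1, had 493, 387 and 399 counts in vector and 712, 682 and 570 counts in shMETTL3 libraries. Its groups were separate and its log2 fold change was 0.51 (SE 0.074, edgeR adjusted p = 1.04e-06). Of the 3 tested ligases that act on ligands, MIB2 was higher at 0.31 (edgeR adjusted p = 0.0101) and MIB1 lower at -0.19 (edgeR adjusted p = 0.00967). Both calls rested on single libraries, since without vector replicate 2 MIB2 was at 0.20 (edgeR adjusted p = 0.102) and MIB1 at -0.16 (edgeR adjusted p = 0.0532), and without shMETTL3 replicate 1 MIB2 was at 0.25 (edgeR adjusted p = 0.0633). With the offsets MIB2 was at 0.51 and MIB1 at -0.38.

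The other Mastermind genes moved apart, with MAML2 at 2.06 ± 0.0816 CPM in vector and 5.09 ± 0.721 CPM in shMETTL3 libraries (SD, n = 3 each), a log2 fold change of 1.31 (SE 0.18, edgeR adjusted p = 4.37e-07), and MAML3 at -0.23 (edgeR adjusted p = 0.00326). Of the 5 coactivators listed beside MAML1, 3 were higher and 1 lower, beside 33.7% and 32.9% of all tested genes. The acetyltransferase KAT2B had a log2 fold change of 0.27 (edgeR adjusted p = 0.00320), or 0.13 with the offsets (edgeR adjusted p = 0.0881). Of the 7 corepressors that RBPJ binds or recruits, 3 were higher and 1 lower, or 57.1% changed beside 66.6% of all tested genes. CIR1 was at 0.39 (edgeR adjusted p = 0.000898), or 0.25 with the offsets, KDM5A at 0.18 (edgeR adjusted p = 0.00712), or 0.064 with the offsets (edgeR adjusted p = 0.189), and SPEN at -0.18 (edgeR adjusted p = 0.0293). SPEN had overlapping groups, and it lost its call without vector replicate 3 and without shMETTL3 replicate 1 or 3, at values from -0.17 to -0.11, with upper-quartile scaling (edgeR adjusted p = 0.0552) and with DESeq2 (adjusted p = 0.0512). The plot by role shows the HES and HEY genes below 0 and the maturation enzymes at or above it, with RFNG at 0.027 (edgeR adjusted p = 0.802) the lowest of these.

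**Figure D5:**
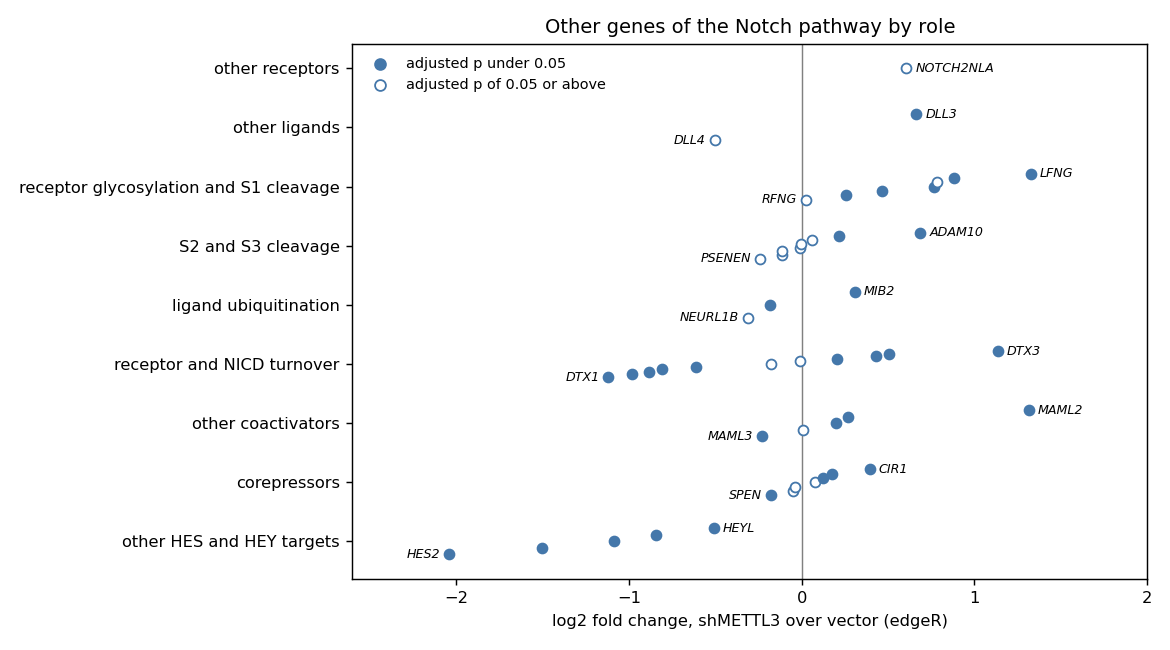
Log2 fold change of shMETTL3 over vector (x axis) for the 49 tested genes of the pathway outside the 10, by role (y axis), filled where the adjusted p was under 0.05. The lowest and highest gene of each role are named, from HES2 at -2.04 to LFNG at 1.33.

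Scaling by library size alone put the median of all tested genes at a log2 fold change of 0.18. It gave -0.11 for JAG1, -0.24 for JAG2, -0.25 for HES1 and 0.34 for NOTCH2, all with an adjusted p under 0.05, and -0.11 for MAML1, which was then not called (edgeR adjusted p = 0.133). MIB1, at -0.012, MAML3, at -0.053, and SPEN, at -0.0027, lost their calls with it, while KAT2B was at 0.44 and KDM5A at 0.35. NOTCH3 stayed between -1.74 and -1.51, NRARP between -1.42 and -1.06 and HEY1 between 1.19 and 1.48 over 16 alternatives, each with an adjusted p under 0.05 throughout.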

How the data were processed

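Total RNA of A549 cells was sequenced by a commercial provider for the authors. The reads were aligned to hg19 and counted per gene. The submitters' processing notes list cutadapt 3.0, HISAT2 2.2.1, SAMtools 1.13 and HTSeq 0.13.5, and the study's methods name other versions of HISAT2 and HTSeq. The deposited values are raw counts per gene symbol, without normalization. The annotation and the strand setting are not given in the sources used here.

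From these counts, TMM scaling, filterByExpr, glmQLFit and glmQLFTest of edgeR 4.0.16 in R 4.3.3 were run on 6 libraries with the group as the only term, and p-values were adjusted by Benjamini-Hochberg over the 15125 genes left. SEs and 95% intervals came from the unshrunk coefficient. A gene was called changed at an adjusted p under 0.05. At these depths 3 counts in a library stand at 0.150 to 0.189 CPM, and this limit covers counting error only. Ratios were taken as log2 of counts plus 0.5 and tested by exact permutation, two-sided.

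The alternatives were RLE, upper-quartile and library-size scaling, no filter, a minimum of 10 counts per library, limma-voom (limma 3.58.1), DESeq2 1.42.0, a replicate block, each library left out, offsets for GC content and length by loess (span 0.3), thresholds of 0.01, 0.1 and a log2 fold change of 1, and 5 counts added to ratios. Positions, lengths and GC came from GENCODE v44 lifted to GRCh37, the build of hg19. Of the rows, 38489 matched it by current and 867 by older symbol. The functions were tested on simulated counts.

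The 10 genes and the lists were chosen with earlier results of these data known. Named from the pathway list were SIRT1 and, per role, the 3 called genes with the largest absolute change, beside genes named as not tested or not called, and 1 gene that the rule names is not reported here. HES7, HEYL, DTX2 and DTX4, further genes of the HES, HEY and Deltex families on the list, and the genes used as checks were added after their values were seen.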

Additional observations from a re-analysis of the deposited data

How the results depend on the processing

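The count of 9 changed genes among the 10 lay between 8 and 10 under 18 of 19 alternatives and was 3, with NOTCH3 and NRARP lower and HEY1 higher, when a log2 fold change of at least 1 was required. That of the 53 other pathway genes lay between 25 and 37 and was 7 with that requirement. When single libraries were left out, these counts ran from 8 to 9 and from 28 to 35. RBPJ, which was not called, changed sign to 0.089 with scaling by library size alone (edgeR adjusted p = 0.289). For the other pathway genes recomputed singly, 377 values kept their direction and their side of the threshold, 23 lost the call and none changed direction. All 7 ratios and METTL3, which ran from -1.39 to -1.19, kept their direction. Libraries with the same replicate number did not clearly vary together (correlations of 0.052, -0.0066 and 0.033), and not every library was most like the one with its own number. Correlations this small cannot show whether libraries with the same number shared a batch. With a replicate block, edgeR called 9 of the 10 genes and 33 of the other genes, DESeq2 called 8 and 25, beside 10111 and 8148 of all 15125 genes, without NOTCH2 (0.17, DESeq2 adjusted p = 0.0756) and, among the genes named, DLL3 (0.66, DESeq2 adjusted p = 0.103), MIB1, MIB2, KAT2B, SPEN (DESeq2 adjusted p = 0.363) and HES7, and the changes of log2 ratios were tested by sign flips, with 0.25 as the smallest p possible (exact permutation). HEY1 and NRARP had 17 to 66 counts per library, the fewest of the 10 genes.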
